A study of Mus musculus with 2 samples.

Results

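The SAGA, ATAC, NuA4, p300/CBP and MYST acetyltransferase genes were examined in naive-enriched mouse CD4 T cells with and without Taf7. They are 38 genes chosen by name as subunits of coactivator complexes that share subunits with TFIID or act beside it. All 38 were measured, of 19938 genes with a transcript cluster of 1 gene symbol, and all 38 had a mean signal above the filter on low values (a log2 value of 7.71, the 50th percentile of all rows). Of a gene with several clusters, the cluster of highest mean was taken, which touched Trrap alone.

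Total RNA of spleen CD4 T cells was hybridised to 1 array per genotype, 2 arrays in all. The knockout sample, labelled Taf7 -/-, carried TAF7 f/- with 8EIII-cre, and the heterozygous sample, labelled Taf7 +/-, carried TAF7 f/- without Cre. Both therefore carried a null allele of Taf7, and no wild-type array was analysed here. Both samples were of a C57/BL6 and 129 mix. T cells with abundant TCRbeta and CD4 and little CD44 on their surface were sorted by FACS. The sources used here do not give the age of the mice, whether animals were pooled or what drives 8EIII-cre. With 1 array per genotype there is no replicate check, so no test was run, and each difference below is a log2 value of the knockout array minus that of the heterozygous array. Where a pair of log2 signals is given, the heterozygous value comes first.

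Coactivator acetyltransferases place acetyl groups on histone tails, which opens chromatin and recruits proteins with bromodomains. SAGA and ATAC each carry the acetyltransferase Kat2a or Kat2b in a module with Tada3 and Sgf29, joined to Tada2b in SAGA and to Tada2a in ATAC. SAGA also holds a histone H2B deubiquitinase and a core built on histone-fold proteins, several of which it shares with TFIID. NuA4 is built around the MYST enzyme Kat5 (Tip60), and p300 and CBP are broad enhancer coactivators. TAF7, the deleted TFIID subunit, is known to bind TAF1 and to restrain its acetyltransferase activity.

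The deleted gene came first as a check of the labels. Taf7 had 8.34 on the heterozygous and 7.79 on the knockout array, a log2 difference of -0.55 or 1.46-fold lower, at percentile 4.2 of the 500 genes nearest to it in mean signal. The sources used here do not say whether its probes cover the deleted part, so this value is no proof of the deletion. The markers were mostly those of T cells: all 12 measured T cell genes were above the filter. So were 0 of 12 myeloid, 0 of 5 natural killer cell, 1 of 8 measured B cell and 1 of 5 measured erythroid or platelet markers. Of the 2 CD8 T cell markers, Cd8b1 was well above the filter, with 10.50 and 10.24. Cd8a was just under it, with 7.63 and 7.65. Most markers of regulatory T cells differed between the arrays. All 8 were lower in the knockout, 6 of them by at least 1.5-fold, where 3.17% of all genes above the filter were. The other 2 differed less: Tnfrsf18 was 1.19-fold lower, and Gpr83 only 1.01-fold, at percentile 66.4 of its neighbours in signal. The summed linear signal of the 8 went from 15.6 to 9.20 in units of 1000, while that of the T cell list went from 98.5 to 88.3. Within the T cell list Thy1 was 1.91-fold lower. The part of regulatory T cells in the differences below was not tested, and in such bulk samples fewer cells of a type and less RNA per cell cannot be told apart.

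Over the complexes as a whole, no gene differed by 1.5-fold. Of the 38, 0 were at least 1.5-fold higher and 0 at least 1.5-fold lower, where 0.449% of the 10457 genes above the filter were higher and 3.17% lower by that size. At a smaller size, a log2 difference of at least 0.322 (written 0.32 below), 7 of the 38 (18.4%) were lower in the knockout and 0 higher, against a background of 13.3% lower and 5.03% higher. By sign alone 27 were lower and 11 higher, and 59.1% of all genes were lower and 40.9% higher. The median difference of the 38 genes was -0.10, with quartiles of -0.28 and 0.02, and that of all genes above the filter was -0.05, with quartiles of -0.20 and 0.10. Both shares of lower genes were above the background by a few genes only and are not read as a result about these complexes. The spread of the 38 was as wide as that of all genes, with an interquartile range of 0.30 for each. The split at a difference of 0.32 was 7 lower to 0 higher as deposited and 5 to 1 after the median difference was subtracted. It was 4 to 2 after removal of a loess trend or quantile normalization. Over all 10457 genes above the filter, the split was 1394 to 526 as deposited and 1085 to 804 with the median subtracted. It was 1087 to 513 with the loess trend removed and, of 10459 genes, 1013 to 604 after quantile normalization. By sign the 38 were 24 lower to 14 higher with the median subtracted, then 21 to 17 under each of the latter. The median of all genes under these scalings was 0, -0.004 and 0.009 in that order.

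**Figure D1:**
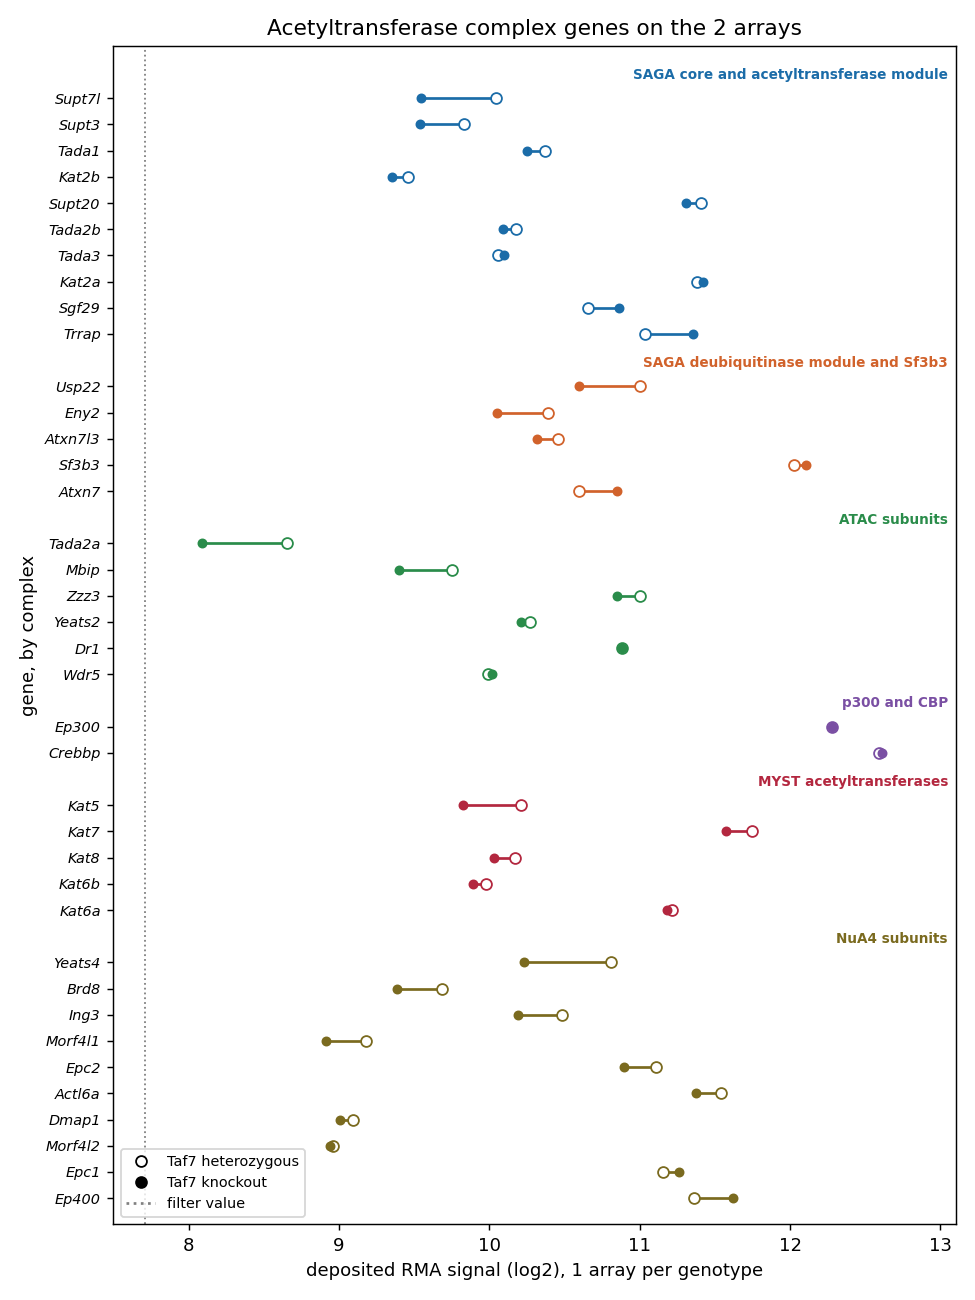
Deposited log2 RMA signal of the 38 genes on the heterozygous (open circles) and knockout (filled circles) arrays, grouped by complex and sorted by difference; the dotted line is the filter value of 7.71. Yeats4, Tada2a and Supt7l have the longest lines to lower values and Trrap the longest to higher values, and the signals of different genes are not comparable with each other.

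The genes at the 2 ends as deposited were Yeats4, Tada2a and Supt7l, the lowest in the knockout, and Trrap and Ep400, which were higher. Their promoters are shown because TFIID assembles at core promoters, and because these are the lowest 3 and the highest 2 of the 24 genes that had exactly 1 window in the RefSeq table (build GRCm38.p6). Each stretch runs 5′ to 3′ on the strand of the gene, from 250 bases before the annotated start to 30 bases after it. Capitals mark exact matches, on either strand, to TATAAA (which binds the TATA-binding protein), CCAAT (the core of NF-Y sites), GGGCGG (the GC box of Sp1 factors) and CGGAAG (the core of ETS factor sites), and some of these overlap. The positions are chr10:117224478-117224757 (minus strand), chr11:84129539-84129818 (minus), chr5:31526733-31527012 (minus), chr5:144768544-144768823 (plus) and chr5:110770688-110770967 (minus).
Yeats4: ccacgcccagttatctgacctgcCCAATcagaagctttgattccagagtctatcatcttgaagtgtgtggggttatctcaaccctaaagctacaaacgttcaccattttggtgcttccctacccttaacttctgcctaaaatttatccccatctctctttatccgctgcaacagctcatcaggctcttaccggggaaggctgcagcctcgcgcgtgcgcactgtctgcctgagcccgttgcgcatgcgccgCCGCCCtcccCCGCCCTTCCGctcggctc
Tada2a: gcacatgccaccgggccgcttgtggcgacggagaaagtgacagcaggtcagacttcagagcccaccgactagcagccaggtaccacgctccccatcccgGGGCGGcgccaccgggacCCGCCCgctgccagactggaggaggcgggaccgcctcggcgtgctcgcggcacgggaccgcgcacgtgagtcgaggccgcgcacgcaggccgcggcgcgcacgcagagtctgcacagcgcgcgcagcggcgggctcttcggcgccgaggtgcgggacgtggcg
Supt7l: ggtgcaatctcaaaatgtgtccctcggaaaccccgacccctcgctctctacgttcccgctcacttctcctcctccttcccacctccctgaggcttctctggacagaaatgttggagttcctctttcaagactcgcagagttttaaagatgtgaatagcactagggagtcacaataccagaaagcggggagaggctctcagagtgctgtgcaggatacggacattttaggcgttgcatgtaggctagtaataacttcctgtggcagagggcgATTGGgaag
Trrap: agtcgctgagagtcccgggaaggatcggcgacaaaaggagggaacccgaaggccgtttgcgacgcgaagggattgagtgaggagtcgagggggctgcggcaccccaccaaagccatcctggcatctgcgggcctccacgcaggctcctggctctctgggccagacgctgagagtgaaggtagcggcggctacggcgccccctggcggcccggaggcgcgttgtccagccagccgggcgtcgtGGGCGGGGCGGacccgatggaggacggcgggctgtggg
Ep400: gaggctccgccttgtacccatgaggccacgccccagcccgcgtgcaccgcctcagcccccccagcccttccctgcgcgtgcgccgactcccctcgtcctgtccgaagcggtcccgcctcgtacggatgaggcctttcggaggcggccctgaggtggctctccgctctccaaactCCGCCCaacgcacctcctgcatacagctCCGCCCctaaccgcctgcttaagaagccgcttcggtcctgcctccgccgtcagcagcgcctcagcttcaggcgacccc

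None of these 5 windows held TATAAA, in either the lower or the higher genes. GC boxes stood in the windows of Yeats4, Tada2a, Trrap and Ep400, 2 in each, and none in that of Supt7l. In Trrap the 2 copies overlap and begin just before the start, at positions -8 and -3, while in Yeats4 they lie just after it, from positions 2 and 12. Ep400 has its copies from positions -76 and -48 and Tada2a from -151 and -133. Yeats4 and Supt7l each held 1 CCAAT match and 1 CGGAAG match, of which the CGGAAG match of Supt7l, from position 36, lies beyond the printed stretch. GC boxes thus stood in front of or at the start of genes of both directions.

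Windows of 300 bases were found for 32 of the 38 genes, 44 windows in all. Absent were Tada1, Usp22, Eny2, Kat6a, Brd8 and Epc1. Of the 44 windows, 1 (2.27%), that of Sf3b3, held TATAAA, compared with 6.70% of windows of genes above the filter and 13.6% of all 32851 windows in the table. GGGCGG stood in 31 (70.5%), compared with 62.9% for genes above the filter and 35.7% for all windows. CGGAAG stood in 13 (29.5%), against 32.0% and 16.9%, and CCAAT in 17 (38.6%), against 37.0% and 37.4%. The median GC content was 58.3%, against 61.0% for genes above the filter and 52.7% for all windows. For GC content and each motif other than CCAAT, the values of the acetyltransferase genes were closer to those of genes above the filter than to those of all windows. Windows of 1 gene can overlap and are not independent.

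Within SAGA, the core and acetyltransferase module was mixed, with 6 of 10 genes lower and 4 higher and a median of -0.09. Over all genes above the filter 59.1% were lower. Supt7l, a core scaffold subunit with a histone fold, had 10.05 on the heterozygous and 9.54 on the knockout array, 1.42-fold lower. Its difference of -0.50 lay at percentile 5 of the 500 genes nearest in mean signal. Supt3, another histone-fold subunit of the core that takes part in TBP delivery, went the same way, from 9.83 to 9.54, a difference of -0.29. The other core genes were closer together: Supt20 had 11.41 and 11.31, 1.07-fold lower. Tada1, the core subunit that bears a histone fold too, had 10.37 and 10.25, a difference of -0.12.

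Trrap, the very large pseudokinase through which activators recruit both SAGA and NuA4, was the highest of the 38 genes. It went from 11.04 in the heterozygote to 11.35 in the knockout, 1.246-fold higher. Its log2 difference of 0.317 was just short of the 0.322 used for the counts. That lay at percentile 99.2 of its 500 neighbours in signal. The second transcript cluster of Trrap, not used in the counts, gave 9.73 and 10.02, a difference of 0.29 in the same direction. Sgf29, the Tudor-domain reader of methylated histone H3, was also higher, from 10.66 to 10.86, at percentile 94.0.

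The acetyltransferase genes of SAGA themselves differed little. Kat2a (GCN5) was at 11.38 and 11.42, a difference of 0.04, and Kat2b (PCAF), its alternative in the same position, at 9.46 and 9.35, a difference of -0.11. Both lay in the middle of their neighbours in signal, at percentiles 67.2 and 50.4. Tada3, which links the enzyme to its complex, had 10.06 and 10.09. Tada2b, the SAGA-specific adaptor, had 10.17 and 10.09, a difference of -0.08 that turned to the other sign with the loess trend removed or after quantile normalization.

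The SAGA deubiquitinase module was split in direction. It was listed together with Sf3b3, and 2 of these 5 genes were lower by at least 0.32 as deposited, where 13.3% of all genes were. Usp22, the enzyme that removes ubiquitin from histone H2B, had 11.00 on the heterozygous and 10.60 on the knockout array, 1.32-fold lower and at percentile 6.8 of its neighbours. Eny2, a small subunit shared with the mRNA export complex TREX-2, went from 10.39 to 10.05, 1.27-fold lower. Its difference of -0.34 was -0.29 after the median difference was subtracted and -0.25 with the loess trend removed or after quantile normalization, so that Usp22 alone of the module was lower by at least 0.32 under all 4 scalings. Atxn7l3, the adaptor that activates Usp22, was at 10.46 and 10.31, a difference of -0.14. Atxn7, which anchors the module to SAGA, stood on the other side: 10.59 in the heterozygote and 10.85 in the knockout, 1.19-fold higher and at percentile 97.4. Its difference of 0.256 was 0.323 with the loess trend removed and 0.325 after quantile normalization, past the 0.322 used for the counts. Sf3b3, a splicing factor subunit that is also found in SAGA, was at 12.03 and 12.11, a difference of 0.08.

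**Figure D2:**
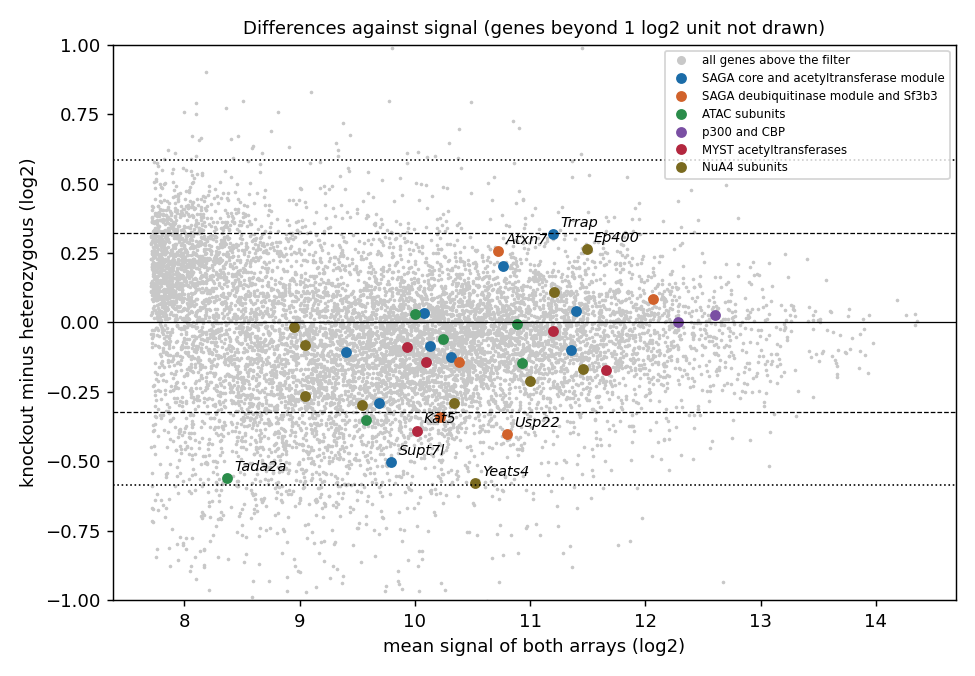
Log2 difference, knockout minus heterozygous, against the mean log2 signal of both arrays for the 10457 genes above the filter (grey) and the 38 acetyltransferase complex genes (coloured by group). Dashed lines mark differences of 0.32 and dotted lines 1.5-fold; no coloured point passes a dotted line, 7 lie below the lower dashed line, and Trrap lies at the upper one.

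Of the 6 genes listed as ATAC subunits 5 were lower, where 59.1% of all genes above the filter were, and their median was -0.10. Kat2a, Kat2b, Tada3 and Sgf29, which ATAC can hold too, were counted with SAGA, and of them only Kat2b was lower. Tada2a, the adaptor that ATAC has in place of Tada2b, was the second lowest of the 38 genes as deposited, with 8.65 on the heterozygous and 8.09 on the knockout array, 1.48-fold lower. Its knockout value lay closest to the filter value of 7.71, and its difference of -0.56 lay at percentile 6 of its neighbours. Genes of its signal scatter more, with a robust SD of 0.31, against 0.16 around Yeats4. The difference of Tada2a minus that of Tada2b was -0.48, a gap between single values that was not tested. Mbip, an ATAC subunit that was named for binding a MAP kinase kinase kinase, went from 9.75 to 9.40, 1.28-fold lower. Its difference of -0.35 was within 0.32 under each of the 3 other scalings, between -0.30 and -0.25.

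The remaining genes of the ATAC list were within 1.11-fold. Zzz3, a reader of histone H3, was at 11.00 and 10.85, and Yeats2, a YEATS-domain reader of acylated histones, at 10.27 and 10.21. Wdr5, which ATAC shares with the MLL methyltransferases, had 9.99 and 10.02. Dr1, which ATAC shares with the TBP repressor NC2, had 10.89 and 10.88, a difference of -0.00. The signs of Yeats2 and Dr1 turned in 2 and 3, respectively, of the 3 other scalings.

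The p300 and CBP genes were level between the arrays. Ep300 had 12.28 on each, a difference of 0.00, and Crebbp had 12.59 and 12.61, a difference of 0.03. They lay at percentiles 58.6 and 67.2 of genes with like signal. The difference of Ep300 minus that of Crebbp was -0.02.

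All 5 MYST acetyltransferase genes were on the lower side as deposited, where 59.1% of all genes above the filter were. Their median was -0.14, though only Kat5 was lower by more than 0.32, and that not under every scaling. Kat5, the catalytic subunit of NuA4, had 10.21 on the heterozygous and 9.82 on the knockout array, 1.31-fold lower and at percentile 8.2. Its difference of -0.39 was -0.30 with the loess trend removed and after quantile normalization. Kat7 (HBO1), which acts at replication origins and genes, was at 11.74 and 11.57, a difference of -0.17. Kat8 (MOF), which acetylates histone H4, had 10.17 and 10.03, a difference of -0.14. The paralogs Kat6a (MOZ) and Kat6b (MORF) were near 0: Kat6a had 11.21 and 11.18, and Kat6b 9.98 and 9.89. The sign of Kat6a turned under each of the 3 other scalings, and that of Kat6b with the loess trend removed and after quantile normalization. Thus 3 of the 5 genes were lower under every scaling.

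The 10 genes listed as NuA4 subunits had the lowest median of the 6 groups, -0.19. Of these 10, 8 were lower, where 59.1% of all genes above the filter were, but only Yeats4 by more than 0.32. Kat5 (-0.39) and Trrap (0.317), which belong to NuA4 too, were counted in the MYST and SAGA groups. Yeats4 (GAS41), a YEATS-domain reader that NuA4 shares with the SRCAP remodeller, was the lowest of the 38 genes as deposited. It went from 10.81 in the heterozygote to 10.23 in the knockout, 1.49-fold lower. Its difference of -0.58 lay at percentile 1.2 of its 500 neighbours, the only one of the 38 below percentile 5. With the loess trend removed or after quantile normalization Tada2a was lower, at -0.59 against -0.50 and at -0.56 against -0.50.

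Brd8, Ing3, Morf4l1 and Morf4l2 of NuA4 were lower by less as deposited. Brd8, a bromodomain subunit, was at 9.69 and 9.39, a difference of -0.30. Ing3, a PHD-finger reader of methylated histone H3, followed with 10.48 and 10.19, a difference of -0.29. Both lay between percentiles 15 and 20 of genes of like signal. Morf4l1 (MRG15), the chromodomain subunit, went from 9.18 to 8.91, a difference of -0.27. Morf4l2 (MRGX), its paralog without a chromodomain, was at 8.96 and 8.94, a difference of -0.02 that turned sign under each of the 3 other scalings. The reference lists a pseudogene named for Morf4l1, one for Kat2b, one for Supt20 and 2 for Kat6b, and it was not tested whether probes of these genes also detect them.

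Scaffold and shared subunits of NuA4 went both ways. Actl6a (BAF53a), an actin-related protein that is also part of the BAF and INO80 remodellers, had 11.54 and 11.38, a difference of -0.17. Dmap1, shared with SRCAP, had 9.09 and 9.01, a difference of -0.08. Epc1 and Epc2, alternative scaffolds named for Enhancer of Polycomb, lay on opposite sides: Epc1 was at 11.15 and 11.26, a difference of 0.11, and Epc2 at 11.11 and 10.90, a difference of -0.21. Each kept its sign under all 4 scalings. Ep400, the ATPase that exchanges histone variants, was the second highest of the 38 genes as deposited, with 11.36 in the heterozygote and 11.62 in the knockout. That is 1.20-fold higher, at percentile 96.6 of its neighbours. With the loess trend removed or after quantile normalization Atxn7 stood above it, at 0.323 against 0.311 and at 0.325 against 0.315.

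Placed among genes of like signal, the 38 were spread over most of the range. In the middle, between percentiles 25 and 75, lay 17 genes, with 12 between percentiles 5 and 25 and 5 between 75 and 95. At the ends, 1 gene was below percentile 5 and 3 (Trrap, Atxn7 and Ep400) were at or above percentile 95. By construction, each band holds a share of all genes above the filter close to its width in percentile points. The counts per band are not read as a result about these genes. Across the 38 genes the difference correlated with mean signal (Pearson r = 0.47, Spearman rho = 0.44), whereas over all genes above the filter these were -0.09 and -0.14. These are correlations across genes of the same 2 arrays, which are not independent replicates, and they are given as a description. In 32 of the 38 genes the sign was the same under all 4 scalings, and the other 6 were Tada2b, Yeats2, Dr1, Kat6a, Kat6b and Morf4l2.

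**Figure D3:**
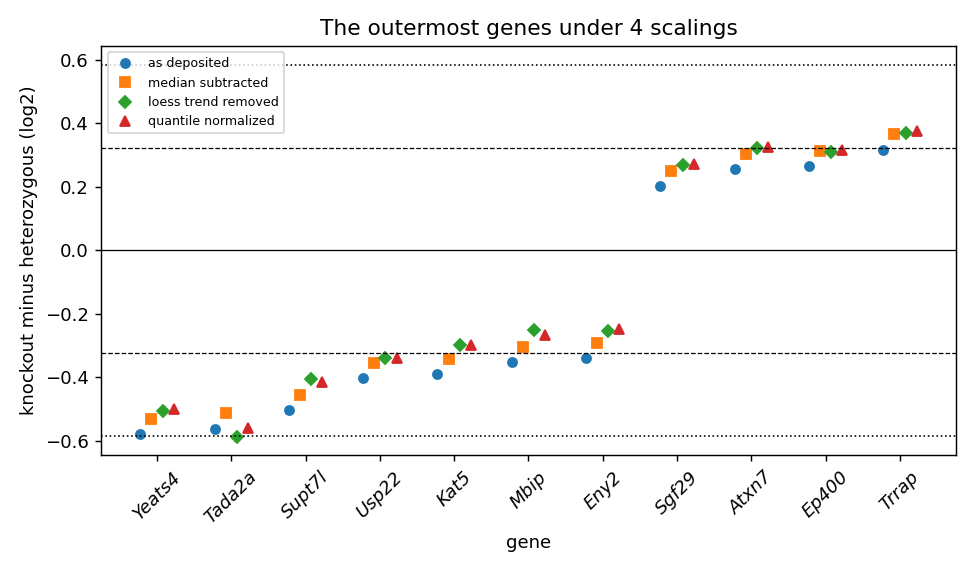
Log2 difference of the 7 genes lower by at least 0.32 and the 4 highest genes under 4 scalings of the same 2 arrays; dashed lines mark differences of 0.32 and dotted lines 1.5-fold. Each gene keeps its sign, but Mbip and Eny2 leave the range beyond the lower dashed line under all 3 other scalings and Kat5 under loess and quantile normalization. Trrap passes the upper dashed line under all 3, Atxn7 under loess and quantile normalization, and Tada2a passes the lower dotted line with loess.

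Subunits of the same complexes outside the 38 genes also lay on both sides of 0. The counts of lower genes in these lists stand beside 59.1% lower over all genes above the filter. Of 15 further SAGA and ATAC subunits 13 were above the filter, 9 lower and 4 higher, with a median of -0.13, and 3 were lower and 1 higher by at least 0.32. The lowest were Kat14, the second acetyltransferase of ATAC, at -0.36, and Sf3b5, a small SF3b subunit also found in SAGA, at -0.35. Taf12, a histone-fold subunit that SAGA shares with TFIID, was the highest at 0.35, followed by Taf10, another shared subunit, at 0.11. The further NuA4 subunits above the filter were all within 0.32, 4 lower and 3 higher, from Meaf6 at -0.26 and the ATPase Ruvbl1 at -0.16 to Mbtd1 at 0.06 and Mrgbp at 0.09.

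Partners of the other MYST enzymes held values about as far out as the outermost of the 38 genes. Their median was -0.11, with 11 of 18 on the lower side, and 2 were lower and 1 higher by at least 0.32. Ing5, a PHD-finger subunit of the Kat6a and Kat7 complexes, was at 10.51 and 9.94, 1.48-fold lower, and Mcrs1 of the Kat8 complex at 10.73 and 10.19, 1.45-fold lower. Ogt, the O-GlcNAc transferase that associates with the Kat8 complex, was at 12.62 and 12.99, 1.30-fold higher, and Brpf3, a scaffold of the Kat7 complex, was at 0.26. Of 11 further acetyltransferases and coactivators, 9 were lower, from Kat14, which stands in both lists, and Naa50 at -0.36 and -0.31 to Ncoa3 at 0.04 and Ncoa2 at 0.09. Over the 7 companion lists, deacetylases and acetyl-lysine readers included, 99 genes were above the filter, of which 8.08% were lower by at least 0.32, against 18.4% of the 38 genes and 13.3% of all genes.

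**Figure D4:**
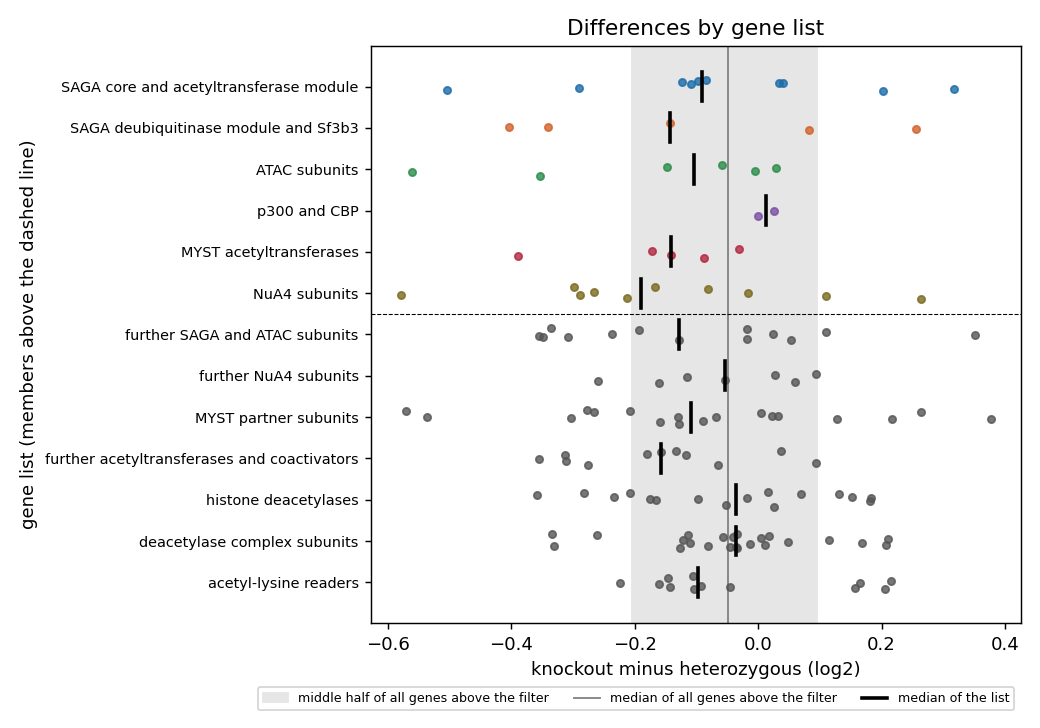
Log2 difference, knockout minus heterozygous, of each gene above the filter (points) by list, with the list median (black bar), for the 6 groups of the 38 genes and 7 companion lists. The grey band spans the quartiles of all genes above the filter, -0.20 to 0.10, and every list median lies inside it.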

How the data were processed

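The authors made the deposited log2 values by RMA, in version 1.1 of Affymetrix Expression Console, and kept the core gene set, per the labels' design text and the submitters' processing notes. The array is called an exon array there, but the identifiers are those of a gene-level whole transcript array; the type stayed unsettled. The sources used here give no genome build and no probe positions. Of 35556 rows, 21789 had 1 gene symbol, 1621 several and 12146 none in the probe table, and only those with 1 were named. The gene identifiers of all 38 genes were in the reference table of assembly GRCm38.p6, and 0 symbols needed updating.

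No further normalization was applied, and the knockout value minus the heterozygous value was taken. The filter was the 50th percentile of all rows, and genes were counted at 1.5-fold and at a log2 difference of 0.32. The position of a gene among the 500 genes nearest in mean signal is a description of 2 arrays, with no test. Every one of the 38 genes is named, with Taf7 and up to 2 genes at each end of every companion list. Thy1, Tnfrsf18, Gpr83, Cd8a, Cd8b1 and the pairs of genes set side by side were chosen after their values were seen. The genes, lists and fold sizes were chosen with earlier results of these data known. The 8 alternatives were quantile normalization, subtraction of the median difference, a loess trend (span 0.3) taken out, averaging of a gene's clusters, genes of 1 cluster only, and the filter left off or set at the 25th or the 75th percentile. The counting was tested on simulated data. Promoter sequences are from RefSeq. The scripts ran on Python 3.11.15 with statsmodels 0.14.6, pandas 2.3.3 and numpy 2.4.6, and figures were drawn with matplotlib 3.10.9.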

Additional observations from a re-analysis of the deposited data

How the results depend on the processing

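With 1 array a genotype, none could be left out, and precision is limited by their number. No paired analysis was possible because the groups hold a lone array apiece and the labels name no shared animal. Of the 38 genes, 0 were higher by at least 0.32 as deposited, 1 after the median difference was subtracted and 2 after removal of the loess trend or quantile normalization. The 7 genes lower by at least 0.32 became 4 with the loess trend removed and 4 after quantile normalization. Over all genes above the filter, 1394 lower by that size became 1087 and 1013, and 526 higher became 513 and 604. At 1.5-fold, 0 of the 38 were lower as deposited and 1 with the loess trend removed, Tada2a at -0.59. By that size, 332 of all genes above the filter were lower as deposited and 271 with the loess trend removed. The median of the 38 genes was between -0.11 and -0.02 over the 8 alternatives, and Taf7 between -0.64 and -0.50. All 303 values of single genes under alternatives moved by less than the robust SD of their neighbours in signal. Those under other filters could not move, nor, Trrap aside, could those under the 2 settings that treat a gene's clusters otherwise. Subtracting the median of -0.05 shifted every gene alike, by less than the smallest robust SD around the 38 genes, 0.14. Only the values under loess and quantile normalization could thus have moved further. List medians moved by 0.1 or more for further SAGA and ATAC subunits alone, -0.03 with the loess trend removed and -0.24 under the 75th percentile filter. Among all genes, 47 were at least 1.5-fold higher, against 71 after the median was subtracted, 91 with no filter and 16 with the filter at the 75th percentile. By at least 0.32, 526 were higher, against 804, 1748 and 108 in the same order and 1319 with the filter at the 25th percentile. With the filter at the 75th percentile 105 were at least 1.5-fold lower, against 332, and 569 lower by at least 0.32, against 1394; fewer genes are admitted there. The median of all genes went from -0.05 to 0.06 with no filter, which admits genes of low signal.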

Other observations

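Genes of the deacetylase families, of deacetylase complexes and of acetyl-lysine readers lay within 1.5-fold as deposited, like the acetyltransferase genes. Of all genes above the filter only 0.449% were higher and 3.17% lower by at least 1.5-fold. Lying within 1.5-fold is therefore not read as a result about these lists. Of 18 genes of the Hdac and sirtuin families, not all of them nuclear, 16 were above the filter. Of these 9 were lower and 7 higher in the knockout, with a median log2 difference of -0.03. Over all genes above the filter 59.1% were lower, and the median was -0.05. Sirt4, a mitochondrial sirtuin, was the lowest at -0.36, followed by Hdac6, the cytoplasmic tubulin deacetylase, at -0.28, and the highest were Sirt7 and Hdac8, both at 0.18. Hdac1 and Hdac3, catalytic subunits of the main corepressor complexes, were at -0.05 and 0.03; both were chosen after their values were seen.

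Of 23 subunits of deacetylase complexes above the filter, 15 lay on the lower and 8 on the higher side of 0, around a median of -0.04. Mta3 of the NuRD complex and Tbl1xr1 of the NCoR complex were the lowest, both at -0.33 and 1.26-fold lower, and Gps2 and Sin3b, both at 0.21, were the highest. Of 12 acetyl-lysine readers above the filter, 8 were lower and 4 higher, from Atad2b at -0.22 and Brd3 at -0.16 to Brd2 at 0.21 and Baz2b at 0.22, and 0 passed a difference of 0.32. None of these differences has a replicate check. The counts in these lists stand beside 59.1% lower over all genes above the filter. By at least 0.32, 13.3% of all those genes were lower and 5.03% higher.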
